A study of Rattus norvegicus with 5 samples.

Results

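Histone genes and the genes of the high mobility group (HMG) proteins, which together make and dress the nucleosome, were followed in rat lenses cultured with a DNA-damaging drug. Members were taken by gene symbol alone: probe sets annotated to 1 symbol that begins with H1f, H1-, H2a, H2b, H3, H4 or Hist and belongs to a histone gene, or with Hmga, Hmgb or Hmgn and a digit. This gave 60 probe sets with 56 symbols, of 18511 single-symbol probe sets and 36685 in all. Of the 60, 27 were replication-type histones of the gene clusters, 14 were variant histones and 19 were HMG genes.

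The series held 5 arrays of whole lenses cultured in serum-free M199 medium with albumin, 1 array for each condition, and the donors were male Sprague Dawley rats aged 6 weeks. The conditions were MMS (methyl methanesulfonate, an alkylating agent) at 1 mM on Day 2 and on Day 4, Bleomycin, which breaks DNA strands, at 800 μg/mL on Day 2 and on Day 6, and Control, cultured in medium for 4 days. With n = 1 per condition there was no spread between replicates, no error and no test, and every difference compares one array with another; no Control array matched Day 2 or Day 6, so drug and culture time cannot be told apart there. Values are log2 signals normalized by RMA on the Rat Gene 2.0 ST array, so that a difference of 1 is 2-fold.

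Histones H2A, H2B, H3 and H4 form the core around which DNA is wrapped, and linker histone H1 binds where DNA enters and leaves it. Replication-type genes lie in clusters, are transcribed mainly while DNA is copied, and give mRNAs that end in a stem-loop in place of a poly(A) tail. Variant histones are made from separate genes also outside DNA synthesis, and HMG proteins bend DNA or bind nucleosomes. In the lens, the epithelial layer keeps its nuclei and supplies new cells, whereas fiber cells lose their nuclei and chromatin as they mature.

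A log2 signal of at least 5 in some array, the limit used in the study, was reached by 29 of the 60 members and by 4155 of the 18511 single-symbol probe sets. The 31 members that stayed under it included all 3 replication-type H1 sets, 4 of 7 replication-type H2A sets and 7 of 12 replication-type H2B sets. Of the 29, 20 reached 5 in all 5 arrays, 3 had a Control signal under 5 (Hist1h2af, H2ax and the dimmest Hmgb1-ps33 set) and H2az2l1 reached it in Control alone. The plot of member signals shows these 29 probe sets.

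**Figure D1:**
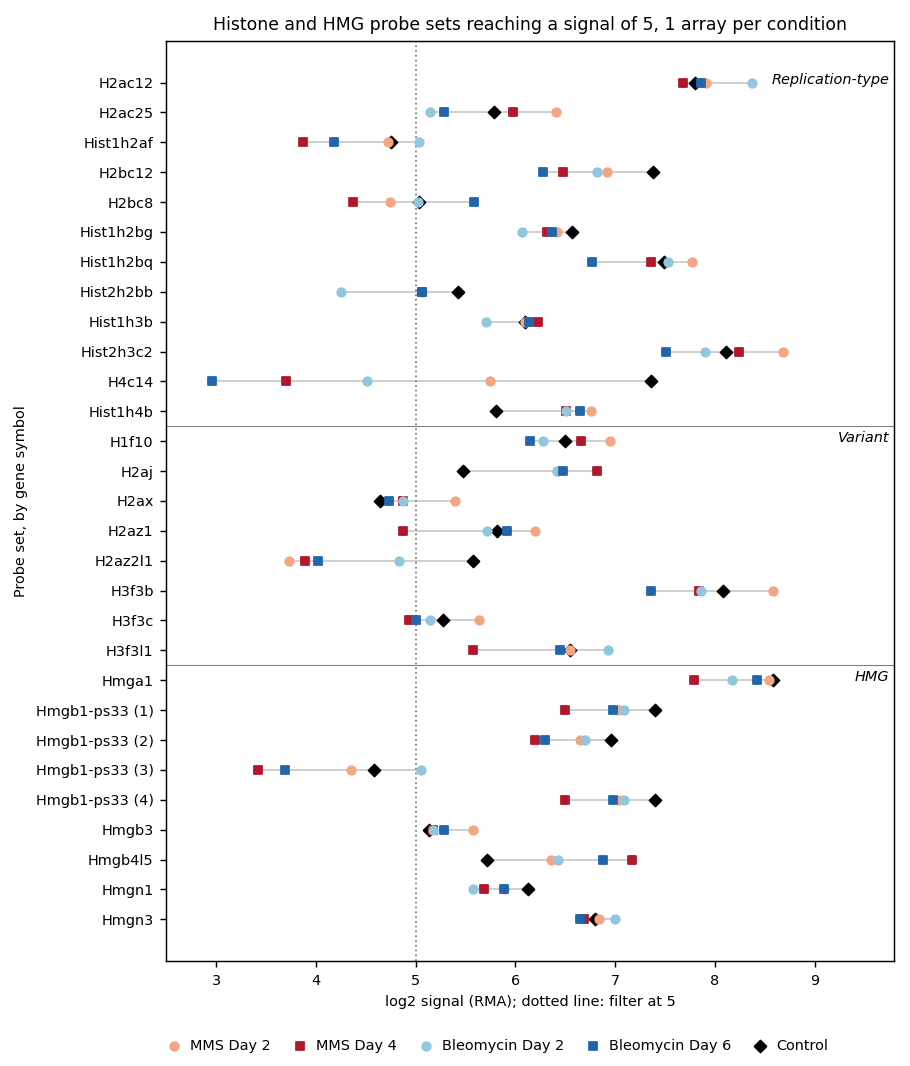
Log2 signal of the 29 histone and HMG probe sets that reached 5 in some array, with symbols down the page by class and 1 point for each array; the grey line spans the 5 values and the dotted line marks 5. H4c14 spans the widest range, from 2.96 in Bleomycin Day 6 to 7.36 in Control, while most sets lie within 2-fold of Control.

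Array-wide signals differed too. The median over all probe sets was 2.95 with MMS on Day 2 and 3.02 on Day 4, 2.93 with Bleomycin on Day 2 and 2.98 on Day 6, and 2.84 in Control, and the SD was lowest in MMS Day 4 at 1.82 and highest in Control at 2.00. Of 10 lens fiber markers 7 were on the array and all 7 reached 5, with a log2 summed signal of 14.78 to 14.87 in the treated arrays and 14.77 in Control. The brightest markers weigh most in these sums. For Gja3, differences from Control were -0.79 and -0.84 with MMS on Days 2 and 4. With Bleomycin on Days 2 and 6 they were -0.36 and -1.12. No other fiber marker was 2-fold from Control, and the 7 had medians of 0.08, 0.06, 0.05 and 0.09 in the same 4 arrays. Of the 6 lens epithelium markers 5 reached 5, and the log2 summed signal of the 6 was 8.67 with MMS on Day 2 and 7.04 on Day 4, 7.34 with Bleomycin on Day 2 and 7.08 on Day 6, and 10.14 in Control. Foxe3, Pax6, Cdh1 and Slc2a1 were at least 2-fold lower in all 4 treated arrays and Gja1 in 3 of them, and Krt19 stayed under 5. In such bulk lenses, fewer cells of a type and less RNA per cell cannot be told apart, and the part of the epithelial markers in the differences below was not tested. No listed marker of retina, macrophage or vascular endothelium reached 5, and of those of iris or ciliary body only Des did, at 5.59 in Control, with log2 differences of -2.15, -2.80, -2.15 and -2.29 in MMS Day 2, in MMS Day 4 and in the earlier and later Bleomycin arrays, and its part in the differences below was not tested either. None of the 5 blood markers had a single-symbol probe set.

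Most histone and HMG genes that reached 5 lay within 2-fold of Control, and the member farthest from it was the histone H4 gene H4c14. In MMS Day 2, 0 of the 29 members that reached 5 were at least 2-fold higher than Control and 2 were at least 2-fold lower, against 1.18% and 9.48% of all 4155 such probe sets. MMS Day 4 had 2 higher and 3 lower, against 1.25% and 26.6%. Bleomycin Day 2 had 0 higher and 2 lower, against 0.842% and 9.31%, and Bleomycin Day 6 had 1 higher and 3 lower, against 1.40% and 19.4%. Within 2-fold of Control in all 4 treated arrays were 22 of the 29 members, or 75.9%, and 66.8% of the 4155. As deposited, 10 of the 29 (34.5%) were below Control in all 4 treated arrays, against 49.6% of the 4155. Above it in all 4 were 5 of the 29 (17.2%), against 11.7%. H2az2l1, which reached 5 in Control alone, is 1 of the 10. H2ax, which reached 5 in MMS Day 2 alone, is 1 of the 5 above Control. It could enter the 29 only by being higher in that array. Over all 60 members, with no limit on signal, the counts higher were 0, 5, 0 and 2 with MMS on Days 2 and 4 and Bleomycin on Days 2 and 6, against 0.751%, 2.41%, 0.675% and 1.69% of the 18511. The counts lower were 3, 5, 3 and 4, against 2.88%, 8.10%, 3.08% and 6.10%.

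The classes are set side by side in the plot of differences by class. Of the members that reached 5, the 12 replication-type sets had a median log2 difference from Control of -0.02 with MMS on Day 2 and -0.19 on Day 4, and -0.30 with Bleomycin on Day 2 and -0.43 on Day 6. The 8 variant sets had medians of 0.41, -0.29, -0.11 and -0.18 in the same 4 arrays, and the 9 HMG sets -0.24, -0.76, -0.27 and -0.24. Of these 9 sets 4 carried the symbol Hmgb1-ps33, and with the sets of a symbol averaged the HMG medians were 0.00, -0.28, -0.03 and -0.16. All 4155 probe sets had -0.14, -0.45, -0.13 and -0.27. The replication-type median minus the variant median was therefore -0.43, 0.10, -0.19 and -0.25, with replication-type sets the higher class in MMS Day 4 alone, but without the limit on signal the MMS Day 4 difference was -0.27. When arrays were centred on their median, the replication-type and variant medians in MMS Day 4 were 0.43 and 0.33, above Control. Without the limit on signal, the medians of the 27 replication-type sets were 0.00, -0.09, 0.00 and -0.19, those of the 14 variant sets 0.33, 0.19, 0.00 and 0.00, and those of the 19 HMG sets -0.03, 0.00, 0.00 and 0.00, with 0.00 in each array over all 18511.

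**Figure D2:**
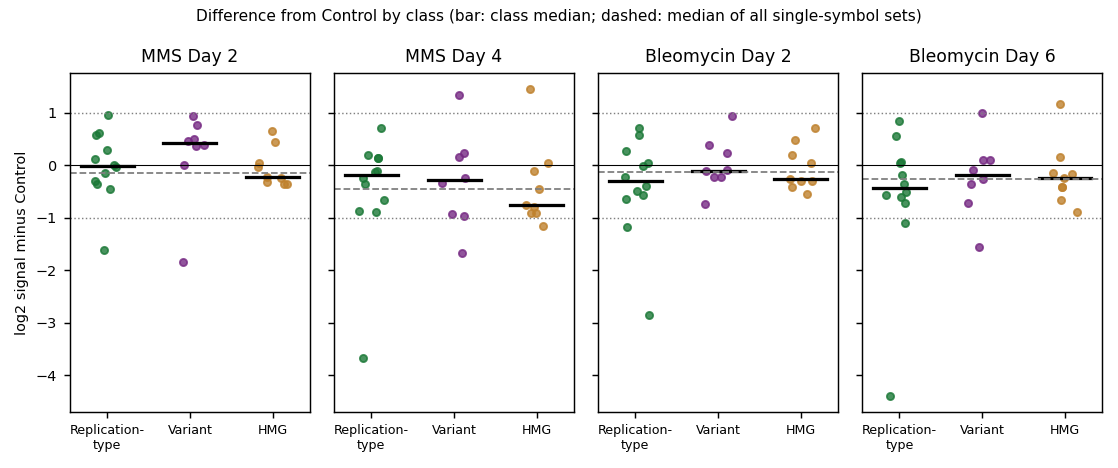
Log2 signal minus Control of the members that reached 5, 1 panel for each treated array and 1 point for each probe set, by class; black bars are class medians, the dashed line is the median of all 4155 single-symbol probe sets that reached 5, and dotted lines mark 2-fold. Class medians lie between -0.76 and 0.41, and the lowest replication-type point in every panel is H4c14.

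H4c14, a histone H4 gene, had a log2 signal of 5.75 with MMS on Day 2 and 3.70 on Day 4, 4.51 with Bleomycin on Day 2 and 2.96 on Day 6, and 7.36 in Control. Every treated array was below Control, and for each drug the later array was below the earlier one. The log2 differences from Control were -1.62, -3.67, -2.85 and -4.40, at least 2-fold lower in all 4 arrays, which held for 1 of the 29 members (3.45%) and for 270 of the 4155 probe sets (6.5%). As deposited and under 3 other scalings of the arrays the differences lay between -4.56 and -1.34, but its mean signal over the arrays was under 5, and a limit on the mean would leave it out. The log2 difference was -2.05 between MMS Day 4 and MMS Day 2, and -1.55 between Bleomycin Day 6 and Bleomycin Day 2.

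Hist1h4b, the other H4 member, codes for the same core histone in the large cluster. Its log2 signal was 6.76 with MMS on Day 2 and 6.51 on Day 4, 6.51 with Bleomycin on Day 2 and 6.65 on Day 6, and 5.80 in Control. Control was the lowest array, and the differences from it, 0.96, 0.71, 0.71 and 0.85, were all under 2-fold, with 0.34 to 1.33 as the range over all scalings. Thus the pair of H4 probe sets stood on opposite sides of Control in every treated array.

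H4 genes share nearly identical coding sequence, and 3 more probe sets, outside the membership rule, were annotated to 4 H4 symbols each. The brightest had 6.81 with MMS on Day 2 and 6.18 on Day 4, 5.71 with Bleomycin on Day 2 and 5.04 on Day 6, and 7.58 in Control. A further set had 6.24, 5.68, 5.67, 4.45 and 7.04 in the same order of arrays, and the dimmest 2.83, 2.83, 2.41, 1.37 and 5.06. As deposited, all 3 were lowest in Bleomycin Day 6 and highest in Control, as H4c14 was, and the dimmest reached 5 in Control alone. Which H4 transcripts each set reads cannot be told apart from the annotation, and the H4 plot gives the 5 sets together.

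**Figure D3:**
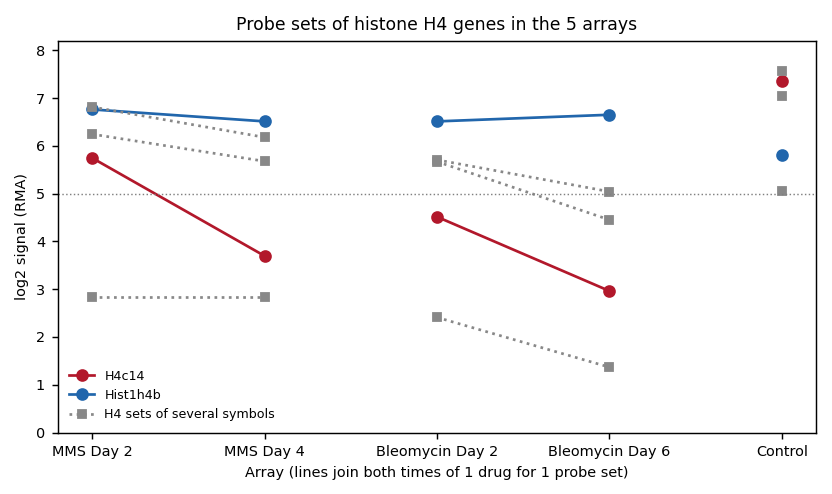
Log2 signal of the 5 probe sets annotated to H4 genes alone in the 5 arrays; lines join both times of 1 drug, grey squares are the 3 sets with several symbols, and the dotted line marks 5. H4c14 and the grey sets lie below their Control values in every treated array, and Hist1h4b lies above its Control value of 5.80.

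The H3 genes of the clusters differed less. Hist2h3c2, an H3 gene, had 8.68 with MMS on Day 2 and 8.25 on Day 4, 7.90 with Bleomycin on Day 2 and 7.51 on Day 6, and 8.12 in Control. As deposited, both MMS arrays were above Control and both Bleomycin arrays below it, with log2 differences of 0.56, 0.13, -0.22 and -0.60, but the MMS Day 4 value was -0.24 with olfactory receptor centring and the Bleomycin Day 2 value 0.07 with median centring. Hist1h3b, in the large cluster, had log2 differences of 0.00, 0.14, -0.39 and 0.04 around a Control signal of 6.09. The remaining replication-type H3 set, H3f4, is a testis-type gene and stayed under 5.

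Among the replication-type H2A genes, which form a dimer with H2B in the core, 3 sets reached 5. H2ac12 was highest in Bleomycin Day 2, with 7.91 with MMS on Day 2 and 7.68 on Day 4, 8.37 with Bleomycin on Day 2 and 7.86 on Day 6, and 7.80 in Control. H2ac25 had 6.41, 5.98, 5.14, 5.28 and 5.79 in the same arrays, so as deposited both MMS arrays lay above Control and both Bleomycin arrays below it, with MMS Day 4 at -0.17 from Control under olfactory receptor centring. Its log2 difference between MMS Day 2 and Bleomycin Day 2 was 1.26, more than 2-fold, while no treated array was 2-fold from Control. Hist1h2af passed 5 in Bleomycin Day 2 alone, at 5.03, against 4.75 in Control.

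Of the replication-type H2B genes 5 sets reached 5, and H2bc12 was the one below Control in every treated array under every scaling tried. Its log2 signal was 6.92 with MMS on Day 2 and 6.48 on Day 4, 6.81 with Bleomycin on Day 2 and 6.28 on Day 6, and 7.38 in Control. The differences, -0.46, -0.90, -0.56 and -1.10, were at least 2-fold in Bleomycin Day 6 only. Hist2h2bb was at 4.25 in Bleomycin Day 2, a log2 difference of -1.17 from Control, and at 5.06 in the other 3 treated arrays, against 5.42 in Control. H2bc8 had its lowest signal in MMS Day 4, 4.37, and its highest in Bleomycin Day 6, 5.58, a log2 difference of -1.21 between those arrays, with 5.04 in Control. Hist1h2bg and Hist1h2bq, a further pair of H2B genes, had log2 differences from Control between -0.72 and 0.28 in all 4 arrays.

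Where promoters are concerned, 48 of the 56 symbols were matched in RefSeq windows of build GRCr8 that run from 250 bases before to 50 after the start, with Hmgb3 holding 3 of the 50 windows and H4c14 among the symbols not matched. Several H2A and H2B genes lie head to head, so that their windows share bases: 248 for H2ac12 and H2bc12 on chromosome 17 and 283 for H2ac25 and H2bu1 on chromosome 10. On both strands, CCAAT was found in 24 of 25 replication-type windows (96%), 7 of 13 variant windows (53.8%) and 10 of 12 HMG windows (83.3%), and in 37.5% of all 33469 promoters of that length. TATAAA was found in 15 (60%), 4 (30.8%) and 2 (16.7%) of them, and in 14.2% of all. ATTTGCAT, the octamer known from H2B promoters, was found in 11 (44%), 2 (15.4%) and 1 (8.33%), and in 1.78% of all. In the clusters, 5 of 7 H2A and 6 of 11 H2B windows held it, and 0 of 7 H1, H3 and H4 windows did. In each head-to-head pair the octamer lay in the shared bases and was counted for both genes, so the H2A and H2B counts overlap. Other strings in shared bases were counted for both genes too. These matches of letters are descriptions and name no binding site.

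The 250 bases before the start are shown for a gene above Control in every treated array from outside the clusters (H2aj), a cluster gene below Control in every treated array (H2bc12) and the H4 gene above it (Hist1h4b), each read 5′ to 3′ on the gene's strand with the 3 motifs above, on either strand, in capitals. H2aj lies at chr4:171406672-171406921 on the plus strand, H2bc12 at chr17:47181941-47182190 on the minus strand and Hist1h4b at chr17:47175996-47176245 on the plus strand, all in GRCr8. None of the 3 motifs is part of another, and the marked stretches do not overlap. H2bc12 holds CCAAT 3 times, TATAAA on the strand opposite to the gene and, 48 bases before the start, ATTTGCAT. H2aj holds CCAAT 3 times, and Hist1h4b holds none of these strings of letters.
H2aj: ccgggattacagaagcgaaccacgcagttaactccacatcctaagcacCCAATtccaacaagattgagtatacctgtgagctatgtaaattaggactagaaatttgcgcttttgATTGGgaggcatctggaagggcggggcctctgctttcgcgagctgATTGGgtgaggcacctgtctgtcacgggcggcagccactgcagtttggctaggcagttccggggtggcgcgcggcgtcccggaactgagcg
H2bc12: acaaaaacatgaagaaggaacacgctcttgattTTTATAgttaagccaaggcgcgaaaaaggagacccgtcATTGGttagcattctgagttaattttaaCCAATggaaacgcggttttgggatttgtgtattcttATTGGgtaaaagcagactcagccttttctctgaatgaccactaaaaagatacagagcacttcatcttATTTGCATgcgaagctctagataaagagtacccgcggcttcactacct
Hist1h4b: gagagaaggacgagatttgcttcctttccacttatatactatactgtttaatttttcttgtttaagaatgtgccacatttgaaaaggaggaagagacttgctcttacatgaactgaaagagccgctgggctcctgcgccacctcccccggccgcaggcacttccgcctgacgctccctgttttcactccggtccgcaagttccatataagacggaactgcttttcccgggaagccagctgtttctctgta

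H2aj codes for H2A.J, a variant of H2A that in human fibroblasts accumulates in senescence with lasting DNA damage. Its log2 signal was 6.42 with MMS on Day 2 and 6.82 on Day 4, 6.42 with Bleomycin on Day 2 and 6.47 on Day 6, and 5.48 in Control. Control was the lowest array, and the differences were 0.94, 1.34, 0.94 and 1.00, of which MMS Day 4 alone reached 2-fold and Bleomycin Day 6 lay just under it before rounding. The range over all scalings was 0.78 to 1.96, so its direction was the same under each.

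H2ax codes for H2A.X, which is phosphorylated at DNA breaks. It had 5.40 with MMS on Day 2 and 4.87 on Day 4, 4.87 with Bleomycin on Day 2 and 4.73 on Day 6, and 4.64 in Control, and only MMS Day 2 reached 5. Its log2 differences from Control, 0.76, 0.23, 0.23 and 0.09, were under 2-fold, and the values of the later arrays, MMS Day 4 and Bleomycin Day 6, were -0.14 and -0.07 when arrays were centred on olfactory receptor genes.

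H2A.Z, the variant found around transcription starts, is made from H2az1 and H2az2. The H2az1 set had 6.19 with MMS on Day 2 and 4.88 on Day 4, 5.72 with Bleomycin on Day 2 and 5.91 on Day 6, and 5.81 in Control. MMS Day 4 was the array that stood apart, with log2 differences of -0.94 from Control, -1.32 from MMS Day 2 and -1.04 from Bleomycin Day 6, which were -0.97 and -0.87 with median centring. H2az2l1, by its name a copy of H2az2, had 3.73, 3.89, 4.83, 4.02 and 5.57 in the same order, lowest in MMS Day 2 and highest in Control. Its differences from Control were -1.84, -1.68, -0.74 and -1.55, so 3 of 4 were at least 2-fold, and all stayed negative under every scaling. Since it reached 5 in Control alone, it could enter the 29 only by being higher there. The 3 further sets annotated to 4 symbols of H2A.Z genes each did not share these values. The brightest had 6.51 with MMS on Day 2 and 6.42 on Day 4, 5.18 with Bleomycin on Day 2 and 6.42 on Day 6, and 7.32 in Control. The other sets were above Control in every treated array, as deposited, by 1.32, 1.38, 1.32 and 1.61 in the set with 2.51 in Control, and by 0.47, 0.60, 0.25 and 0.47 in the set with 3.26. Both of these stayed under 5, and which transcripts the sets read cannot be told apart.

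H3f3b, a gene of the replacement histone H3.3, had 8.58 with MMS on Day 2 and 7.84 on Day 4, 7.86 with Bleomycin on Day 2 and 7.36 on Day 6, and 8.09 in Control. MMS Day 2 was the highest and Bleomycin Day 6 the lowest array, with log2 differences of 0.49, -0.25, -0.22 and -0.73. H3f3c and H3f3l1, by their names related to the same gene, had log2 differences from Control between -0.97 and 0.38. H1f10, a linker histone made outside DNA synthesis, had 6.95, 6.66, 6.27, 6.14 and 6.50 in the same order of arrays. As with Hist2h3c2 and H2ac25, both MMS arrays lay above Control and both Bleomycin arrays below it, by 0.45, 0.16, -0.22 and -0.35, as deposited and not under every scaling.

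HMG members fell into 3 families. Hmga1, whose protein binds AT-rich DNA through AT hooks, had 8.55 with MMS on Day 2 and 7.79 on Day 4, 8.17 with Bleomycin on Day 2 and 8.42 on Day 6, and 8.59 in Control, with its lowest signal in MMS Day 4. Hmga2, the other gene of this family, did not pass 2.98 in any array. Hmgn1 and Hmgn3, which bind nucleosomes, had log2 differences between -0.56 and 0.20 from their Control signals of 6.13 and 6.80.

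The HMGB family, whose proteins bend DNA with HMG boxes, was read mostly through probe sets named for copies. None of the 60 carried the symbol Hmgb1, and 4 carried Hmgb1-ps33, by its name a pseudogene of it. Of these 4, 2 had identical values in every array, 7.04 with MMS on Day 2 and 6.50 on Day 4, 7.09 with Bleomycin on Day 2 and 6.98 on Day 6, and 7.40 in Control. Another had 6.64, 6.20, 6.69, 6.30 and 6.96, so that as deposited Control was highest and MMS Day 4 lowest in these 3 sets. The dimmest had 4.35, 3.42, 5.06, 3.69 and 4.59, with log2 differences from Control of -0.24, -1.16, 0.47 and -0.89. Signals of Hmgb1 and its near-identical copies cannot be told apart here. Hmgb3, another HMG-box gene, had log2 differences between 0.04 and 0.45 from its Control signal of 5.13, and Hmgb2 stayed between 3.85 and 3.99.

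Hmgb4l5, by its name like Hmgb4, which is known from testis in the mouse, had 6.36 with MMS on Day 2 and 7.17 on Day 4, 6.42 with Bleomycin on Day 2 and 6.88 on Day 6, and 5.71 in Control. Control was the lowest array and the later array of each drug was above the earlier one. The log2 differences from Control were 0.65, 1.46, 0.71 and 1.17, at least 2-fold higher in both later arrays, and 0.52 to 2.08 over all scalings. Hmgb4 itself was under 5.

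Between treated arrays, few members were 2-fold apart. MMS Day 4 had 0 of 29 higher and 2 lower than MMS Day 2, H4c14 and H2az1, against 0.217% and 7.75% of all 4155 probe sets. Bleomycin Day 6 had 0 higher and 2 lower than Bleomycin Day 2, H4c14 and the dimmest Hmgb1-ps33 set, against 0.505% and 4.12%. That Hmgb1-ps33 set reached 5 in Bleomycin Day 2 alone, so it could enter the 29 only by being higher there. In the plot of later against earlier arrays, H4c14 was the lowest point for both drugs.

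**Figure D4:**
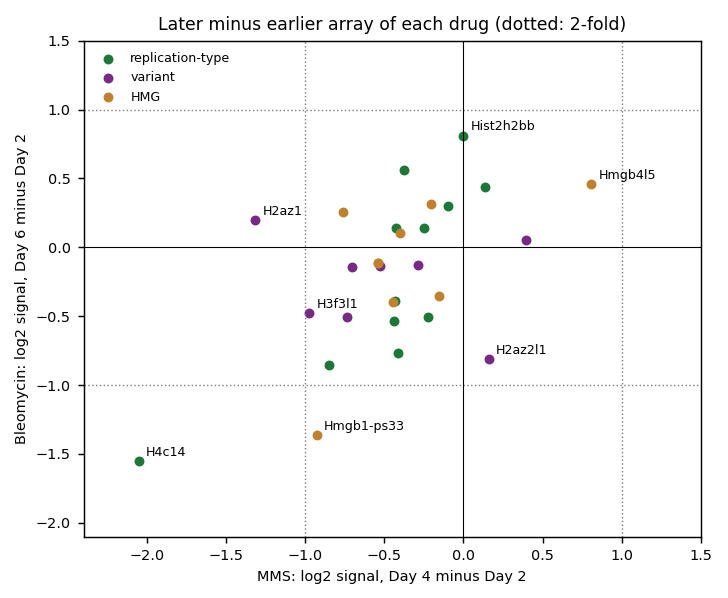
Log2 signal of MMS Day 4 minus MMS Day 2 (across) and of Bleomycin Day 6 minus Bleomycin Day 2 (up), 1 point for each of the 29 members that reached 5, coloured by class; dotted lines mark 2-fold. H4c14 lies at -2.05 and -1.55, H2az1 at -1.32 and 0.20, and no point passes 2-fold upward on either axis.

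On the matched day, MMS Day 2 had 2 of 29 members 2-fold higher than Bleomycin Day 2, H2ac25 by 1.26 and H4c14 by 1.23, and 1 member 2-fold lower, H2az2l1, with a log2 difference of -1.10, against 1.37% and 0.505% of the 4155. The later arrays differ in day: MMS Day 4 had 0 members higher and 2 lower than Bleomycin Day 6, H2bc8 and H2az1, against 0.890% and 4.24%. The median log2 difference of the 29 was 0.25 for the Day 2 pair and -0.07 for the later pair, and that of all 4155 was 0.00 and -0.09.

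Genes that act with histones were taken from lists. Of 11 genes of histone mRNA processing and transcription, 10 were on the array and 4 reached 5, and 0 of them were 2-fold from Control in any array. Slbp, whose protein binds the stem-loop of replication-type histone mRNA, had 2.59 with MMS on Day 2 and 2.31 on Day 4, 2.59 with Bleomycin on Day 2 and 2.78 on Day 6, and 2.59 in Control. Of 22 chaperones and assembly factors, 19 were on the array and 9 reached 5, with 0 of them 2-fold from Control. Of the 4155 probe sets, 66.8% lay within 2-fold of Control in all 4 treated arrays. Nap1l1, a chaperone of H2A and H2B, lay between 8.90 and 9.39 in the treated arrays, against 8.82 in Control. Asf1a, Ubn1 and Ssrp1 were below Control in all 4 treated arrays, with log2 differences between -0.93 and -0.28. The remaining chaperones and assembly factors that reached 5 lay on both sides of Control.

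Markers of dividing cells were mostly dim. Of 25 S phase genes 22 were on the array and 2 reached 5, and none of the 15 mitosis genes on the array passed 4.48. Pcna, the sliding clamp of DNA synthesis and repair, had 5.89 with MMS on Day 2 and 5.39 on Day 4, 5.38 with Bleomycin on Day 2 and 7.41 on Day 6, and 5.49 in Control, so that Bleomycin Day 6 stood above the rest. Tyms, which makes thymidylate, had 5.61, 4.19, 4.93, 4.96 and 4.07 in the same order and was highest in MMS Day 2. In Bleomycin Day 6, where Pcna was highest, H4c14 was at its lowest, and the part of dividing cells in the histone signals was not tested.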

How the data were processed

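The deposited values are log2 signals that the authors had obtained from Rat Gene 2.0 ST arrays with RMA in R, a method that subtracts background, brings the arrays to a common scale and joins the probes of each set into 1 value. Total RNA of whole lenses was converted to cDNA, amplified, fragmented and labelled, and how it was primed is not given in the sources used here. Values were used as deposited, for 36685 probe sets in each of 5 arrays. Gene symbols came from the platform annotation: 18511 probe sets had 1 symbol, 575 had several and 17599 had none, and of the members 57 of 60 were found by gene ID in RefSeq.

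A difference was counted when it reached 2-fold, among single-symbol probe sets with a log2 signal of at least 5 in some array, after the rule in the study's methods. All members that reached 5 are named. The others are given by counts, apart from H2bu1, H3f4, Hmga2, Hmgb2, Hmgb4 and those listed in the closing observations. These exceptions were chosen after their values were seen, as were Slbp, Nap1l1, Asf1a, Ubn1, Ssrp1 and Gja3. With n = 1 per condition no test was made. The members, classes and gene lists were chosen with earlier results of these data known. Alternatives were other limits on signal, a 1.5-fold limit, centring on the array median or on olfactory receptor genes, quantile normalization, averaging the probe sets of a symbol, leaving out testis-type genes and counting an identical probe set once, the last added after seeing the data. Python 3.11.15, numpy 2.4.6, pandas 2.3.3 and matplotlib 3.10.9 were used, and the steps were tested on simulated data.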

Additional observations from a re-analysis of the deposited data

Results flagged for a closer look

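Both MMS arrays lay above Control and both Bleomycin arrays below it for 3 members, and the difference between the drugs was not tested. H2ac25 had log2 differences from Control of 0.62 with MMS on Day 2 and 0.19 on Day 4, and -0.64 with Bleomycin on Day 2 and -0.51 on Day 6. Hist2h3c2 had 0.56, 0.13, -0.22 and -0.60 in the same arrays, and H1f10 had 0.45, 0.16, -0.22 and -0.35. The split depends on the scaling: with olfactory receptor centring the MMS Day 4 values of H2ac25, Hist2h3c2 and H1f10 were -0.17, -0.24 and -0.20, and with median centring the Bleomycin Day 2 values of Hist2h3c2 and H1f10 were 0.07 and 0.06, and the Bleomycin Day 6 value of H1f10 was 0.11.

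Outside the members, 22 probe sets were annotated to several symbols with a histone or HMG gene among them. Of these, 4 were at least 2-fold above Control in some treated array, against 771 of the 18511 single-symbol probe sets. With a signal of 5 reached, 115 of 4155 single-symbol probe sets were so, and 2 of 14 sets with several symbols, each of the 2 with paired H2A symbols. The dimmer had 4.90 with MMS on Day 2 and 5.42 on Day 4, 4.44 with Bleomycin on Day 2 and 4.76 on Day 6, and 4.30 in Control. Its log2 difference was 1.12 in MMS Day 4. It reached 5 in that array alone, so it could enter the 14 only by being higher there. The brighter had 10.94, 9.87, 10.72, 9.88 and 9.68 in the same order, above Control by 1.26 in MMS Day 2 and by 1.04 in Bleomycin Day 2. Both Day 2 arrays were the highest for the brighter set. Under 5, a set with H2A.Z symbols was above Control by 1.32, 1.38, 1.32 and 1.61 in the same 4 treated arrays, and a set with H2B symbols by 1.25 in MMS Day 2.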

How the results depend on the processing

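Under the scalings, no difference of at least 2-fold from Control changed sign. The largest median shift against Control was 0.63, so a log2 difference of 1 or more could hardly do so. The same limit holds for the 9 differences of at least 2-fold between treated arrays, which kept their sign, 7 of them at 2-fold or more. Of the counts and medians, 211 of 248 values stayed within 1.5 times or 1.5-fold, as did 319 of 348 differences of single members from Control. The other 29 all came with median centring, whose shift passed 1.5-fold in MMS Day 4 alone. This count of differences thus follows from shifts of whole arrays. Differences from Control under 2-fold did change sign with the scaling in many members. With 1 array per condition no paired analysis was possible and no replicate could be left out. Counts of members higher or lower than Control by at least 2-fold follow, with the value reported above in the text. Without the limit on signal, MMS Day 4 had 5 higher and 5 lower, Bleomycin Day 6 had 2 higher, the HMG median in MMS Day 4 was 0.00, and 1 member each was higher in MMS Day 4 than in MMS Day 2, in Bleomycin Day 6 than in Bleomycin Day 2 and in MMS Day 4 than in Bleomycin Day 6. With a limit of 6, 1 member each was lower with MMS on Days 2 and 4 and Bleomycin on Day 2, and with a mean signal of at least 5, 0, 0, 0 and 1 were lower with MMS on Days 2 and 4 and Bleomycin on Days 2 and 6, since H4c14, H2az2l1, Hist2h2bb and the dimmest Hmgb1-ps33 set then drop out. Median centring shifted the median of all genes by 0.27, 0.63, 0.28 and 0.46 in the same 4 arrays. It gave 3, 1 and 4 higher with MMS on Day 2 and Bleomycin on Days 2 and 6. The shares of all 4155 probe sets were 2.48%, 2.33% and 4.57%. In Bleomycin Day 2 it gave 1 lower, against 5.13%. MMS Day 4 medians were 0.43 (replication-type), 0.33 (variant) and -0.14 (HMG). MMS Day 4 had 1 higher and 1 lower when set against MMS Day 2, and 1 lower when set against Bleomycin Day 6. Median centring put 9.72% of all probe sets lower and 6.64% higher in MMS Day 4, against 26.6% and 1.25%. Quantile normalization shifted the median by 0.21, 0.39, 0.20 and 0.31. It gave 2, 1 and 3 higher with MMS on Day 2 and Bleomycin on Days 2 and 6, against 1.85%, 1.35% and 2.43% of all such probe sets. In Bleomycin Day 2 it gave 1 lower, against 5.9%, and 1 was lower when MMS Day 4 was set against Bleomycin Day 6. Olfactory receptor centring shifted the median by -0.13, -0.37, -0.16 and -0.16. In MMS Day 4 it gave 1 higher and 12 lower of 29, against 0.554% and 41.3% of all such probe sets. A 1.5-fold limit gave 5, 3 and 3 higher with MMS on Day 2 and Bleomycin on Days 2 and 6, and 12, 4 and 8 lower with MMS on Day 4 and Bleomycin on Days 2 and 6. No shares of all probe sets were counted for this limit, the limit of 6 or the mean. With probe sets of a symbol averaged, the HMG medians were 0.00, -0.28, -0.03 and -0.16 and 2 members were lower in MMS Day 4, against 3, and with the identical set counted once they were -0.14, -0.61, -0.11 and -0.20. Leaving out testis-type genes could change none of these values, since none reached 5. Without the limit on signal, the replication-type minus variant median in MMS Day 4 was -0.27, against 0.10. Apart from the scalings and limits named, the cause was not tested. Of the 29 members, 3 were below Control in all treated arrays under every scaling (H4c14, H2bc12 and H2az2l1, the last reaching 5 in Control alone). Another 3 were above it (Hist1h4b, H2aj and Hmgb4l5), 23 were mixed, and the 4155 were not so counted. The number of arrays, and signals near background for 31 of 60 members, limit the precision.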

Other observations

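Of the 31 members that stayed under a log2 signal of 5, 6 (19.4%) were at least 2-fold from Control in some treated array, against 1223 of the 14356 single-symbol probe sets under 5 (8.52%). H1f5, a linker histone of the large cluster, had 3.64 with MMS on Day 2 and 3.55 on Day 4, 3.38 with Bleomycin on Day 2 and 3.41 on Day 6, and 4.65 in Control, at least 2-fold lower in all 4. H3f4 had a log2 difference of -1.05 in MMS Day 4. In MMS Day 4, H1f6, the testis linker histone, was higher by 1.37, H1f8, the oocyte linker histone, by 1.22, and Hist1h2bo, an H2B gene, by 1.09, all with signals of at most 4.21. Hmgn2l1, by its name like Hmgn2, had 3.21 in Bleomycin Day 6 and 1.76 in Control.

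Of the 14 probe sets with several symbols that reached 5, 4, 6, 7 and 6 were at least 2-fold lower than Control with MMS on Days 2 and 4 and Bleomycin on Days 2 and 6, and 1, 1, 1 and 0 were higher. The shares lower were 28.6%, 42.9%, 50% and 42.9%, against 9.48%, 26.6%, 9.31% and 19.4% of the 4155 single-symbol probe sets, and these sets overlap in their symbols. The sets with Control signals of 5.06 and 5.71 reached 5 in Control alone, so they entered the 14 only by being higher there. Both are part of each count lower. A pair of sets that share the same 2 HMGN symbols had unlike values. The brighter in Control had 6.02 with MMS on Day 2 and 4.86 on Day 4, 5.66 with Bleomycin on Day 2 and 5.52 on Day 6, and 7.18 in Control, and the other had 6.44, 5.95, 5.89, 6.20 and 6.20.

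Exactly equal values were seen in a treated array and Control for 10, 4, 11 and 4 of the 60 members with MMS on Days 2 and 4 and Bleomycin on Days 2 and 6. Over all single-symbol probe sets the shares were 22.4%, 17.1%, 22.1% and 19.8%. H2aj was equal in both Day 2 arrays.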
